A study of Homo sapiens with 8 samples.

Results

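The dual-specificity phosphatase genes DUSP1, DUSP2, DUSP4, DUSP5, DUSP6 and DUSP10, the Sprouty genes SPRY1 and SPRY2, and their relatives SPRED1 and SPRED2 were followed in human acute myeloid leukaemia cells with lowered METTL14. The 10 genes were taken by symbol from the deposited tables, where all of them were found among 16726 listed genes, under the gene numbers 1843, 1844, 1846, 1847, 1848, 11221, 10252, 10253, 161742 and 200734. RNA was sequenced from NB4 with the METTL14 hairpin (shM14, labelled shM14-#2), NB4 with a scrambled non-specific hairpin (shNS), MM6 with shM14 and MM6 with shNS, in 2 libraries each. Both hairpins were carried by a pLKO.1 lentivirus, and all 4 groups were kept in puromycin for 2 passages before lysis. METTL14 is the partner of METTL3 in the enzyme that writes N6-methyladenosine on RNA. NB4 is an established promyelocytic line and MM6 (MonoMac 6) a monocytic line; the tumour type in the labels is acute monocytic leukemia in each case. A single METTL14 hairpin was used, and separate cultures are not stated for the replicates. The p-values below therefore cover the spread between libraries, which may be technical.

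Growth factor and cytokine receptors pass their signal through RAS and RAF to the kinase ERK, and active ERK switches on genes whose products turn the same pathway down. DUSP1, DUSP2, DUSP4 and DUSP5 are nuclear phosphatases that remove phosphate from mitogen-activated protein kinases, DUSP6 does so for ERK in the cytoplasm, and DUSP10 prefers the stress kinases JNK and p38. Sprouty proteins dampen receptor signalling upstream of ERK, and SPRED proteins bring the RAS inhibitor neurofibromin to the membrane. Several of these transcripts are made within minutes of a stimulus and decay fast, so their level is commonly read as a trace of recent signalling.

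The start regions of 4 members on which the results below turn are shown first. DUSP1, DUSP2 and DUSP6 are among the members whose levels differed most between the MM6 libraries, and SPRY2 is the member that fell in NB4. Each line holds the 250 bases before the RefSeq transcript start on the minus strand of GRCh38.p14, 5′ to 3′, and capitals mark TGACG on either strand, CACGTG and TATAAA. The regions are chr5:172771196-172771445 for DUSP1, chr2:96145441-96145690 for DUSP2, chr12:89352502-89352751 for DUSP6 and chr13:80341127-80341376 for SPRY2, the last being the most upstream of 3 listed starts.
DUSP1: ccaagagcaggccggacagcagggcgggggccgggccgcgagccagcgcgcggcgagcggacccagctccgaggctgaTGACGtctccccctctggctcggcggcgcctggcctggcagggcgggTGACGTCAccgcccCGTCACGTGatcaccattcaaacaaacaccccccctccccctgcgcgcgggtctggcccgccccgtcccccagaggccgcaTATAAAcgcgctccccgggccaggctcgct
DUSP2: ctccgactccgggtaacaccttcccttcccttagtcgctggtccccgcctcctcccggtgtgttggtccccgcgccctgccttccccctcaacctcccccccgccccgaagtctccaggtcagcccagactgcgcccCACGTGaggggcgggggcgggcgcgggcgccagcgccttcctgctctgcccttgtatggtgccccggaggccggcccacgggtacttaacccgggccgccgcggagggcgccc
DUSP6: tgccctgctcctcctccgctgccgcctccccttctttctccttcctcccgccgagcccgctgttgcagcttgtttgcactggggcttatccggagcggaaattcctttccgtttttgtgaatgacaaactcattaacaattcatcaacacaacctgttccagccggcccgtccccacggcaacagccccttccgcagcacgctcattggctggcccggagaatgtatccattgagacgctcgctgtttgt
SPRY2: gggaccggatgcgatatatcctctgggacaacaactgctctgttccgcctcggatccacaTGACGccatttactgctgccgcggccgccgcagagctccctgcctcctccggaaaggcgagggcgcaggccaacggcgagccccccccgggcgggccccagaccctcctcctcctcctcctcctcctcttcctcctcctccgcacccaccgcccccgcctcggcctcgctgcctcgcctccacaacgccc
Start regions were matched for 8 of the 10 members. The letters TGACG are the half-site of the cyclic AMP response element, and the DUSP1 region held 4 matches to them over both strands. A pair of these matches are the strands of 1 TGACGTCA, and another overlaps the CACGTG. DUSP1 also had TATAAA at 30 bases before the start. DUSP2 had 1 CACGTG, the letters called an E-box, SPRY2 had 1 TGACG, and DUSP6 had none of these. Among 35116 start regions of the same length TGACG was found in 21.2%, TGACGTCA in 1.65%, CACGTG in 6.35% and TATAAA in 10.7%. TGANTCA (found in 6.57% of all regions) and the serum response CArG box (1.16%) were in none of the members' regions. These matches are descriptions of letters in a window and do not show that a factor bound there.

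Fast decay of such transcripts is commonly tied to AU-rich stretches of the 3′ untranslated region, whose core reads TATTTAT in the DNA. The letters were found in the 3′ untranslated region of 7 of the 10 members, and 5 of them held at least 2, against 30.5% and 12.3% of 11119 genes with a transcript in GENCODE 29. Among genes with a 3′ untranslated region of 1000 to 3000 bases 39.7% held at least 1. The members in that band were SPRY1 and SPRED2, which held the letters, and DUSP5 and DUSP6, which did not. DUSP4 and SPRED1, with 4 and 5 matches, had longer regions of 3962 and 5585 bases. DUSP1, DUSP2 and SPRY2, with 3, 1 and 2 matches, had shorter ones of 672, 657 and 782 bases. The first match of DUSP1, DUSP2, SPRY1 and SPRY2 is shown with 10 bases to each side, and capitals mark the match. The sites lie in GRCh38 at chr5:172768644-172768670 (minus strand), chr2:96143209-96143235 (minus), chr4:123403339-123403365 (plus) and chr13:80336123-80336149 (minus).
DUSP1: ggctggtcctTATTTATttaacttcac
DUSP2: tagcactttaTATTTATacagaacatt
SPRY1: ctcaagttgaTATTTATagctgatcaa
SPRY2: gtgtaaagaaTATTTATttgaagtttt
DUSP5, DUSP6 and DUSP10 had no match. GGACT, one of the short sequences in which N6-methyladenosine is known to be placed, was counted over the whole transcript. DUSP2 held 2.96 copies per kilobase, DUSP1 1.98, DUSP4 1.99, SPRY1 1.92 and SPRY2 1.85, whereas SPRED1 held 0.643 and DUSP10 0.747. The median over the same 11119 genes was 0.940, and 8 of the 10 members lay above it. The files hold no methylation measurement, so these counts say nothing of which copies were methylated.

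Library depth was 23272126 to 28814911 reads over the listed genes. Levels are in RPKM: the reads of a gene divided by the kilobases of its model and by the reads assigned to genes in units of 1000000. METTL14 had 8.35 and 8.35 RPKM in NB4 shM14, against 14.1 and 12.5 RPKM in NB4 shNS, and 6.54 and 6.55 RPKM in MM6 shM14, against 12.5 and 13.4 RPKM in MM6 shNS. The promyelocyte gene MPO was at 2117 to 2490 RPKM in NB4 and 35.1 to 103 RPKM in MM6, whereas the monocyte gene LYZ was at 19.8 to 84.6 RPKM in NB4 and 5836 to 14301 RPKM in MM6. CD14 was at 0.105 to 0.977 RPKM in NB4 and 12.2 to 63.2 RPKM in MM6. Against these profiles, NB4 held the T cell gene CD3D at 45.0 to 60.6 RPKM and the epithelial gene EPCAM at 9.27 to 10.2 RPKM, both under 0.21 RPKM in every MM6 library. ELANE, a promyelocyte protease gene, was at 1599 to 2410 RPKM in MM6, but in NB4 at 0.0387 RPKM in shM14 and 0.0462 RPKM in shNS of replicate 1 and at 6.45 RPKM in shM14 and 6.83 RPKM in shNS of replicate 2. In bulk RNA, fewer cells of a type and less RNA per cell cannot be told apart.

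**Figure D1:**
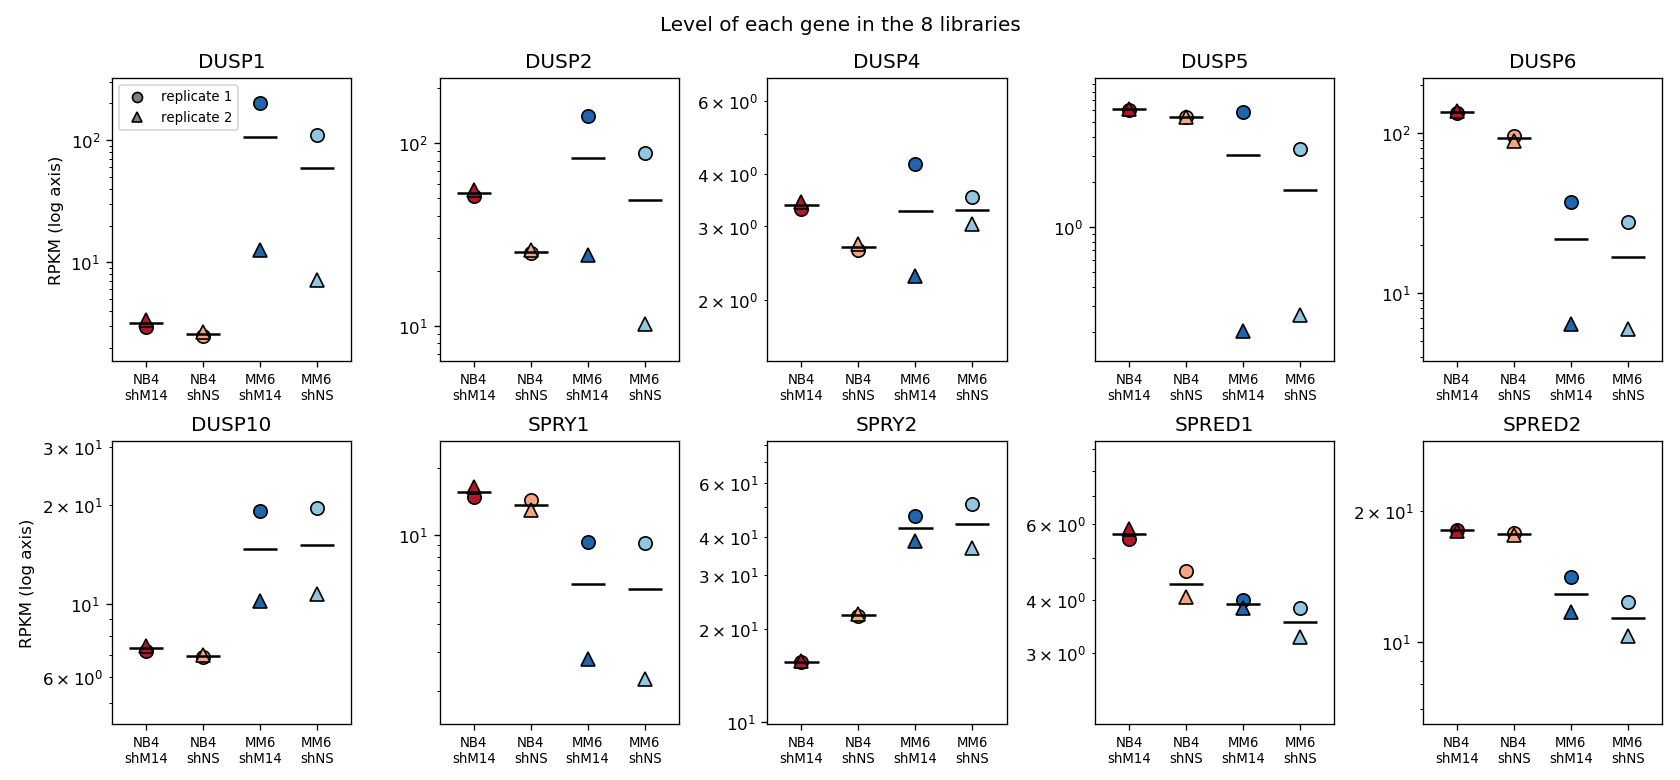
Level of each of the 10 genes in every library, in RPKM on a log axis whose range differs between panels. Circles are replicate 1, triangles replicate 2 and bars the group mean; the NB4 replicates lie close together, whereas in MM6 DUSP1, DUSP2, DUSP5, DUSP6 and SPRY1 are several fold higher in replicate 1 under both hairpins.

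In NB4, 5 of the 10 genes rose with the METTL14 hairpin and 1 fell, while 4 did not pass the test. DUSP2, DUSP6, SPRED1, DUSP4 and DUSP1 rose, and SPRY2 fell. The test was limma on log2(RPKM + 1) over 11531 genes, with a Benjamini-Hochberg adjusted p under 0.05 as the threshold. NB4 had many such genes, 22.1% higher and 25.2% lower, so a count of 5 and 1 is to be read against 47.4% called in either direction. The median change of the 10 genes was 0.20 on the log2 scale, against -0.01 over all genes tested. In 9 of the 10 both shM14 libraries lay above both shNS libraries, and in SPRY2 both lay below, while over all genes tested 37.2% lay above and 40% below without overlap.

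Among the nuclear phosphatases, DUSP2, an inducible enzyme of blood cells, had 51.4 and 55.2 RPKM in NB4 shM14, against 24.9 and 25.8 RPKM in NB4 shNS. It roughly doubled, with means of 53.3 ± 2.68 in NB4 shM14 and 25.4 ± 0.672 RPKM in NB4 shNS (SD, n = 2 each). The log2 change was 1.04 (SE 0.06, limma adjusted p = 0.000493). This was the largest change among the members. DUSP4 had 3.31 and 3.44 RPKM in NB4 shM14, against 2.63 and 2.72 RPKM in NB4 shNS. The groups did not overlap, and the change was 0.25 (SE 0.05, limma adjusted p = 0.0115). DUSP1, which acts on p38 and JNK as well as ERK, had 2.97 and 3.36 RPKM in NB4 shM14, against 2.47 and 2.69 RPKM in NB4 shNS, from 117 to 169 reads per library. Its change of 0.22 (SE 0.07, limma adjusted p = 0.0487) lay just inside the threshold. DUSP5, specific for ERK, had 6.05 and 6.14 RPKM in NB4 shM14, against 5.46 and 5.42 RPKM in NB4 shNS, and its change of 0.14 (SE 0.04, limma adjusted p = 0.0519) lay just outside.

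DUSP6, the cytoplasmic ERK phosphatase, was the most abundant member in NB4. It had 133 and 137 RPKM in NB4 shM14, against 95.2 and 89.4 RPKM in NB4 shNS, and rose by 0.54 on the log2 scale (SE 0.05, limma adjusted p = 0.00178). All 4 values were above those of every MM6 library. DUSP10 had 7.18 and 7.48 RPKM in NB4 shM14, against 6.88 and 7.02 RPKM in NB4 shNS. Its change of 0.07 (95% interval -0.05 to 0.19, limma adjusted p = 0.297) did not pass.

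Of the Sprouty pair, SPRY2 passed the test in NB4. It had 15.7 and 15.7 RPKM in NB4 shM14, against 22.2 and 22.5 RPKM in NB4 shNS, and fell by 0.48 on the log2 scale (SE 0.04, limma adjusted p = 0.00157). SPRY1 had 14.8 and 16.5 RPKM in NB4 shM14, against 14.4 and 13.1 RPKM in NB4 shNS, a change of 0.18 that did not pass (95% interval -0.01 to 0.37, limma adjusted p = 0.108). The difference between SPRY1 and SPRY2 in their response was not tested. SPRED1 had 5.54 and 5.86 RPKM in NB4 shM14, against 4.66 and 4.05 RPKM in NB4 shNS, and rose by 0.32 (SE 0.07, limma adjusted p = 0.0179). SPRED2 was level, with 18.1 and 18.0 RPKM in NB4 shM14, against 17.8 and 17.7 RPKM in NB4 shNS (0.02, 95% interval -0.09 to 0.14, limma adjusted p = 0.668).

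The firmness of these calls differed. DUSP2, DUSP6 and SPRY2 passed with each NB4 library left out in turn, with adjusted p of 0.00114 to 0.00960, whereas DUSP1 was lost each time (adjusted p of 0.0541 to 0.231), DUSP4 without either shM14 replicate (0.0515 and 0.0787) and SPRED1 without shM14 replicate 2 (0.0736). Without the filter on low values DUSP1 and SPRED1 also missed the threshold (adjusted p = 0.0985 and 0.052), whereas DUSP5 passed it (0.0398). DUSP1 was also lost with a pseudocount of 0.1 (0.0567), a variance trend (0.0654) and voom (0.110). SPRY1 passed with voom (0.0224) and with a filter of 10 CPM (0.0443). DUSP5 passed with that filter too (0.0305), with a pseudocount of 0.1 (0.0487) and with median-of-ratios scaling (0.0433). No member passed when NB4 was tested in 1 model with all 8 libraries, in which the wide MM6 replicates enter the error of each gene (adjusted p of 0.586 for DUSP2, 0.745 for DUSP6 and 0.101 for SPRY2). In the authors' deposited values, 7 of the 10 were under an adjusted p of 0.05 in NB4, as were 43.6% of all genes. In the authors' deposited table these were the 6 named above and SPRY1, with log2 fold changes of 1.10 for DUSP2, 0.58 for DUSP6 and -0.48 for SPRY2.

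Monocyte markers moved in the same libraries. All 5 tested of 6 rose in NB4, against 22.1% of all genes tested there. The 6 summed to 134 to 135 RPKM in NB4 shM14, against 45.1 to 47.4 RPKM in NB4 shNS. CD14, which was below the filter, had 0.977 and 0.700 RPKM in NB4 shM14, against 0.111 and 0.105 RPKM in NB4 shNS. Promyelocyte markers had 1 of 5 higher and 3 lower, against 22.1% and 25.2% of all genes tested. Their sums, of which MPO made up most, were 2318 to 2361 RPKM in NB4 shM14 and 2567 to 2666 RPKM in NB4 shNS. PRTN3 was the gene that rose, with 127 and 129 RPKM in NB4 shM14, against 46.1 and 44.1 RPKM in NB4 shNS. CTSG was among those that fell, with 6.73 and 6.85 RPKM in NB4 shM14, against 41.9 and 44.9 RPKM in NB4 shNS. Of the other lists, CD3D rose by 0.37, EPCAM did not pass, and the 2 B cell genes analysed summed to 0.909 to 1.05 RPKM in NB4 shM14 and 1.26 to 1.62 RPKM in NB4 shNS. The part of these shifts in the members' changes was not tested.

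**Figure D2:**
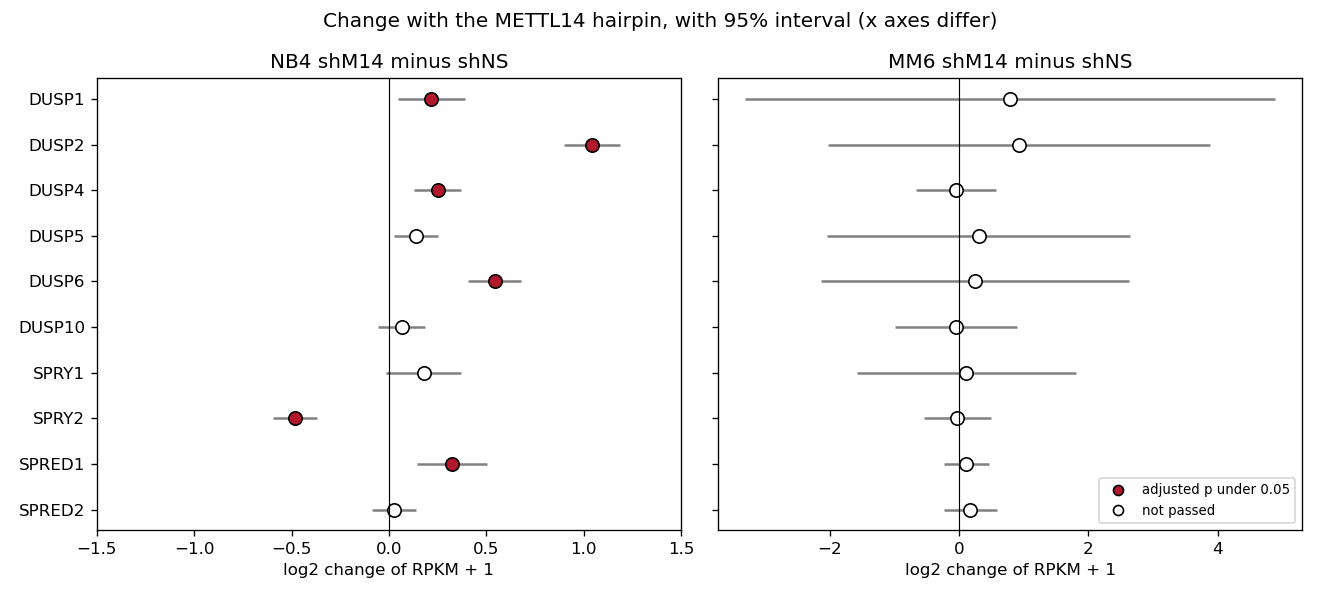
Log2 change of RPKM + 1, shM14 minus shNS, for each gene in NB4 (left) and MM6 (right), with the 95% interval of the moderated limma estimate; filled points passed an adjusted p of 0.05. In NB4 DUSP2 lies at 1.04 and SPRY2 at -0.48 with narrow intervals, whereas every MM6 interval crosses 0, that of DUSP1 from -3.32 to 4.90 on an axis about 3 times as wide.

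In MM6 none of the 10 genes passed the test, whether limma (11895 genes, 0.0757% called), limma with voom on the recovered reads or the authors' deposited table, in which 3.28% of all genes were under the threshold. None had an unadjusted p under 0.05 in the main limma fit either, whereas 15% of all genes did. A fit with the replicate number as a block did call members, and it is given in the last section. METTL14, the target of the hairpin, also missed the threshold in the main MM6 fit, at -0.88 (SE 0.13, limma adjusted p = 0.0877). In NB4 it passed at -0.61 (limma adjusted p = 0.00241), and in the authors' deposited MM6 table its adjusted p was 0.00489. Missing the threshold in the main MM6 fit thus does not show that a gene was unchanged. The median change of the members was 0.14, against -0.03 over all genes tested. DUSP2 had the largest estimate, with 141 and 24.3 RPKM in MM6 shM14, against 87.7 and 10.2 RPKM in MM6 shNS. Its log2 change was 0.93 with a standard error of 1.18 (limma adjusted p = 0.799), and the 95% interval ran from -2.03 to 3.89. DUSP1 had 200.1 and 12.6 RPKM in MM6 shM14, against 111 and 7.19 RPKM in MM6 shNS. The change of 0.79 had a standard error of 1.64 (limma adjusted p = 0.893), and in each group 1 library stood far above the other.

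DUSP6 had 37.1 and 6.40 RPKM in MM6 shM14, against 27.6 and 5.98 RPKM in MM6 shNS, a change of 0.25 (SE 0.95, limma adjusted p = 0.949). DUSP5 had 5.86 and 0.204 RPKM in MM6 shM14, against 3.30 and 0.258 RPKM in MM6 shNS. The low values rest on 12 and 17 reads. SPRY1 had 9.34 and 2.78 RPKM in MM6 shM14, against 9.25 and 2.26 RPKM in MM6 shNS, and DUSP10 had 19.2 and 10.2 RPKM in MM6 shM14, against 19.6 and 10.7 RPKM in MM6 shNS. In each of these the hairpin groups overlapped.

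The remaining MM6 members were less uneven. SPRY2 had 47.0 and 38.7 RPKM in MM6 shM14, against 51.2 and 36.8 RPKM in MM6 shNS, a change of -0.02 (95% interval -0.54 to 0.49) whose sign turned with median-of-ratios scaling (0.02). DUSP4 had 4.24 and 2.28 RPKM in MM6 shM14, against 3.53 and 3.04 RPKM in MM6 shNS. SPRED1 had 3.995 and 3.82 RPKM in MM6 shM14, against 3.83 and 3.27 RPKM in MM6 shNS. SPRED2 had 14.1 and 11.7 RPKM in MM6 shM14, against 12.4 and 10.3 RPKM in MM6 shNS (0.17, 95% interval -0.24 to 0.58). Groups overlapped in all 10 members, whereas 19% of all genes tested lay above and 25.8% below without overlap. For DUSP1, DUSP2, DUSP4, DUSP5, DUSP6, DUSP10, SPRY1 and SPRY2 the sign of the MM6 change turned when single libraries were left out.

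In MM6 the members with the widest spread were split by replicate number. Under both hairpins DUSP1, DUSP2, DUSP5, DUSP6 and SPRY1 were at least 2 fold higher (on RPKM + 1) in the replicate 1 library than in that of replicate 2. That is 5 of 10 members, against 0.958% of the genes tested in MM6 (114 of 11895). DUSP5 reached the 1 RPKM of the filter in the replicate 1 libraries alone, so its direction in this count was set by the filter. All 10 members leaned the same way under both hairpins, but the share of all genes that did so was not counted. Over all genes the replicate differences under the 2 hairpins also ran together in MM6 (r = 0.69). DUSP1 was 15.9 fold higher in shM14 and 15.4 fold higher in shNS. DUSP2 was 5.82 and 8.62 fold higher in shM14 and in shNS, DUSP6 5.79 and 4.62 fold, and SPRY1 3.35 and 4.09 fold. DUSP5 was 28.8 fold higher in shM14 and 12.8 fold in shNS, on the few reads given above. These folds are descriptions of pairs of libraries, with no test.

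Other transcripts that ERK is known to induce shared the split: 8 of 11 tested were at least 2 fold higher in MM6 replicate 1 under both hairpins, and their summed level was 1836 and 620 RPKM in replicates 1 and 2 of MM6 shM14, against 2038 and 510 RPKM in MM6 shNS. None of 20 genes of the RAS to ERK cascade itself and none of 15 of the JNK and p38 cascade did so. Only 0.958% of all genes tested in MM6 did, so these empty counts do not set the 2 cascades apart from other genes. No member of the marker lists passed between hairpins in MM6, and promyelocyte markers summed to 4636 and 5021 RPKM in MM6 shM14, against 4368 and 4551 RPKM in MM6 shNS. The promyelocyte protease gene CTSG, 1 of 5 on that list, was at least 2 fold lower in replicate 1 under both hairpins, with 18.9 and 70.7 RPKM in replicates 1 and 2 of MM6 shM14, against 107 and 239 RPKM in MM6 shNS. Of the monocyte markers 1 of 6 was at least 2 fold higher in replicate 1, and their sum was 14463 and 8259 RPKM in MM6 shM14, against 9299 and 5900 RPKM in MM6 shNS. Depth did not follow the number, with 28525520 and 23272126 reads in MM6 shM14, against 23826956 and 26054707 in MM6 shNS. In NB4 none of the 10 members, and no gene tested, was at least 2 fold higher in replicate 1 under both hairpins. None of the members was at least 2 fold lower there either, but 1 of 5 promyelocyte markers was. That was ELANE, which reached the 1 RPKM of the filter in the NB4 replicate 2 libraries alone. The share of all genes that were lower in NB4 replicate 1 is not given. The labels do not say what the numbers stand for, and what the MM6 replicates differed in was not tested.

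**Figure D3:**
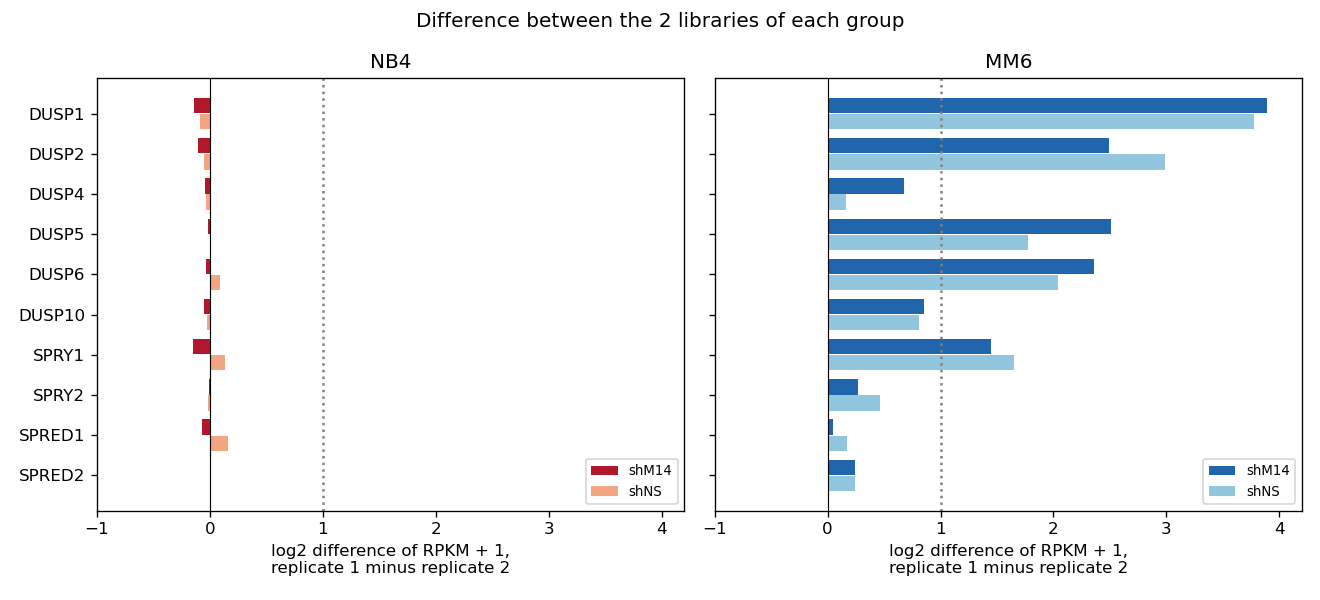
Replicate 1 minus replicate 2 within each group, as a log2 difference of RPKM + 1, in NB4 (left) and MM6 (right), for shM14 and shNS; the dotted line marks 2 fold. The MM6 bars of DUSP1 reach 3.89 in shM14 and 3.77 in shNS, whereas no NB4 bar is longer than 0.17.

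Within libraries of the same number the MM6 hairpin groups could be set side by side. DUSP1 was 1.80 fold as high in shM14 as in shNS in replicate 1 and 1.75 fold in replicate 2, and DUSP2 1.61 and 2.38 fold. In NB4 the same ratios of DUSP2 were 2.07 and 2.14, and those of DUSP1 1.20 and 1.25. SPRED2 was 1.14 fold in both MM6 numbers. DUSP5 and DUSP4 went opposite ways in the 2 MM6 numbers, with 1.78 and 0.790 fold for DUSP5 and 1.20 and 0.750 fold for DUSP4. Over the list, 6 of 10 members were higher in shM14 within both MM6 numbers and 1 was lower, against 31.6% and 40.3% of all genes tested. In NB4 9 were higher and 1 lower, against 40.4% and 43.2%.

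**Figure D4:**
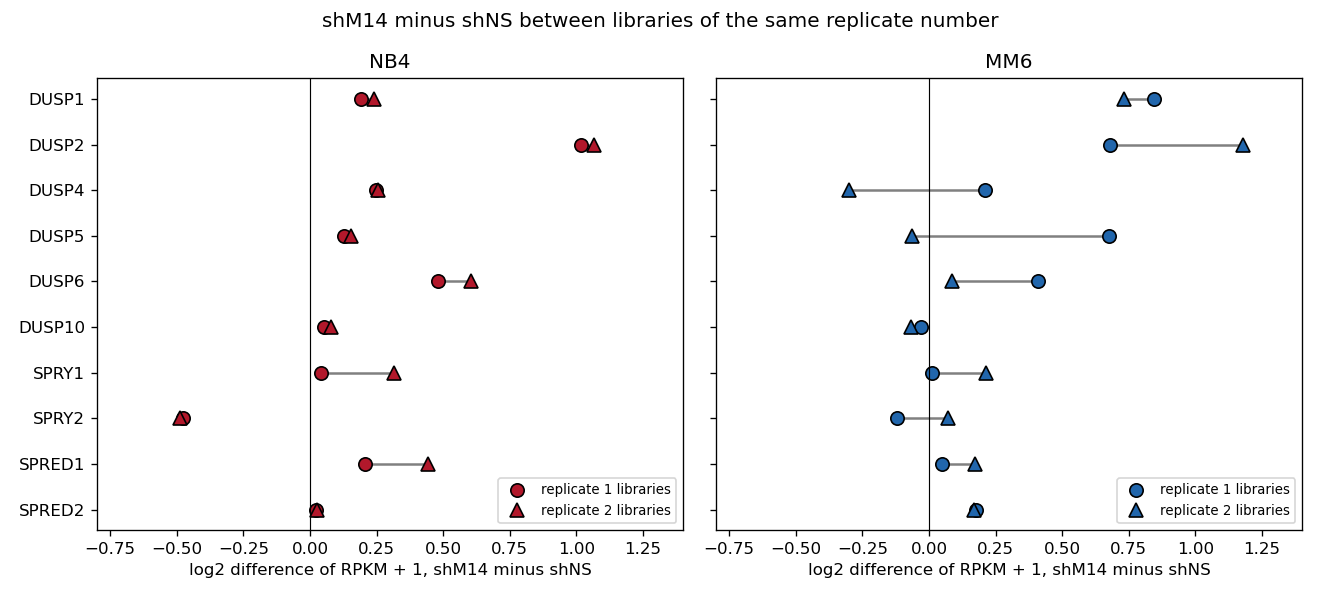
Log2 difference of RPKM + 1, shM14 minus shNS, between libraries of the same replicate number, in NB4 (left) and MM6 (right). For DUSP2 all 4 differences lie between 0.68 and 1.18, whereas SPRY2 is at -0.48 and -0.49 in NB4 and at -0.12 and 0.07 in MM6.

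The change common to both lines, from an additive limma model over all 8 libraries, passed for none of the 10 members (11.9% of 12804 genes called). At an unadjusted p under 0.05 there was 1 member, SPRED1, against 29.6% of all genes, with a change of 0.22 (limma adjusted p = 0.119). DUSP2 had the largest common increase, 0.99 (SE 0.68, limma adjusted p = 0.373), and SPRY2 the largest decrease, -0.25 (SE 0.14, limma adjusted p = 0.252). No member passed the test of the difference between lines either, NB4 change minus MM6 change (2.92% called). None had an unadjusted p under 0.05 there either, against 19.6% of all genes. The difference was 0.11 for DUSP2 (95% interval -3.45 to 3.68) and -0.46 for SPRY2 (95% interval -1.002 to 0.09, limma adjusted p = 0.334).

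Both results changed when MM6 libraries were left out by number. With both MM6 libraries of replicate 1 left out, the common change of DUSP2 was 1.09 (limma adjusted p = 0.00177), and with both of replicate 2 left out 0.92 (adjusted p = 0.00603). The difference of SPRY2 between the lines was -0.55 (adjusted p = 0.0197) and -0.36 (adjusted p = 0.0326) in the same fits. These fits were chosen after the values were seen and leave 1 MM6 library for each hairpin, which is assumed to vary like the NB4 libraries.

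The levels of some members differed between the lines, taking the shNS libraries alone. DUSP6 was higher in NB4 than in MM6, with means of 92.3 ± 4.14 RPKM in NB4 shNS and 16.8 ± 15.3 RPKM in MM6 shNS (SD, n = 2 each). The log2 difference was 2.72 (limma adjusted p = 0.0140). SPRED2 was also higher in NB4, with 17.7 ± 0.112 RPKM in NB4 shNS and 11.3 ± 1.45 RPKM in MM6 shNS (SD, n = 2 each; 0.61, limma adjusted p = 0.00569). SPRY2 was lower in NB4 than in MM6, with 22.3 ± 0.207 RPKM in NB4 shNS and 44.0 ± 10.2 RPKM in MM6 shNS (SD, n = 2 each; -0.93, limma adjusted p = 0.00537). So was DUSP10, with 6.95 ± 0.0996 RPKM in NB4 shNS and 15.1 ± 6.24 RPKM in MM6 shNS (SD, n = 2 each; -0.97, limma adjusted p = 0.0236). That is 2 higher and 2 lower of 10, when 71.1% of 12450 genes were called, 36.8% higher and 34.3% lower. The count was 9 without MM6 control replicate 1 or replicate 2, when 78.0% and 78.6% of all genes were called, and 2 without NB4 control replicate 1, when 47.7% were. In such a fit the group that keeps both libraries supplies the spread of each gene.

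The other 6 did not pass. DUSP1 had the largest difference among the members, -3.08 (95% interval -6.14 to -0.02, limma adjusted p = 0.0661), and the 4 NB4 values lay below every MM6 value. DUSP5 (1.47, adjusted p = 0.0650) and SPRY1 (1.35, adjusted p = 0.0686) were close to the threshold in limma. DUSP2 had -0.26 and its direction turned to 1.24 without MM6 control replicate 1. DUSP4 had -0.22 and SPRED1 0.24. Over all 4 groups the mean level of SPRY2 ranked, high to low, MM6 shNS, MM6 shM14, NB4 shNS and NB4 shM14, of which only the 2 MM6 neighbours overlapped. For DUSP6 and SPRY1 the order was NB4 shM14, NB4 shNS, MM6 shM14 and MM6 shNS, again with overlap between the MM6 groups. For DUSP2 every neighbouring pair overlapped, since the MM6 libraries spanned the NB4 ones.

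Across the 8 libraries the members fell into pairs that moved together, given here as descriptions over libraries that share lines and replicates. Pearson's r of log2(RPKM + 1) was 0.98 for DUSP1 with DUSP10 and 0.98 for DUSP6 with SPRY1, and 0.97 for DUSP5 with SPRY1, whereas it was -0.83 for SPRY2 with SPRED1 and 0.18 for DUSP2 with SPRY2. Of 12803 other genes, those most like DUSP2 were the chemokine gene CXCL8 (r = 0.97), the arrestin-domain gene ARRDC3 (0.96) and the chemokine gene CCL3 (0.96). CXCL8 had 116 and 115 RPKM in NB4 shM14, against 43.8 and 41.5 RPKM in NB4 shNS, and 209.7 and 45.3 RPKM in MM6 shM14, against 102 and 17.6 RPKM in MM6 shNS. Its MM6 replicates were uneven like those of DUSP2, which the choice by the highest r over these libraries favours. Those most like SPRY2 were NCR3LG1 (r = 0.996), a ligand of natural killer cell receptors, TM2D1 (0.99) and NDRG1 (0.99). NDRG1, a stress-responsive gene, had 15.8 and 15.3 RPKM in NB4 shM14, against 24.9 and 25.7 RPKM in NB4 shNS.

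The relatives outside the 10 genes were few. Of 7 further kinase phosphatases and Sprouty or SPRED genes, 3 passed the filter on low values. SPRY4 rose in NB4, with 8.16 and 9.40 RPKM in NB4 shM14, against 7.10 and 6.88 RPKM in NB4 shNS (0.29, limma adjusted p = 0.0277). DUSP7, an ERK phosphatase close to DUSP6, fell in NB4, with 15.5 and 16.5 RPKM in NB4 shM14, against 19.9 and 19.8 RPKM in NB4 shNS (-0.30, limma adjusted p = 0.00919). SPRY4 passed only when no library or shM14 replicate 1 was left out (adjusted p of 0.0710 to 0.116 without the others), and DUSP7 missed the threshold without shM14 replicate 1 (0.0616). In MM6 neither passed, SPRY4 being at 0.31 and DUSP7 at -0.24. Of 8 atypical phosphatases tested in NB4 1 rose and 2 fell, against 22.1% higher and 25.2% lower over all genes tested there. DUSP19 fell by 0.39 and DUSP15 by 0.55, both at 1.53 RPKM or less in every NB4 library. DUSP19 had 0.693 and 0.683 RPKM in NB4 shM14, against 1.17 and 1.25 RPKM in NB4 shNS. DUSP15 had 0.887 and 0.488 RPKM in NB4 shM14, against 1.53 and 1.38 RPKM in NB4 shNS. Both reached the 1 RPKM of the filter in shNS alone, so their direction was set by the filter and the count of 2 lower is no result. In MM6 none of 7 passed, with DUSP3 at -0.39 and DUSP23 at 0.11.

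The cascade that these genes restrain was listed in the same way. Of 20 genes from RAS and its adaptors to ERK, 6 rose and 2 fell in NB4 (median 0.10), against 22.1% higher and 25.2% lower over all genes tested there. NRAS, one of the RAS switches, had 23.2 and 23.2 RPKM in NB4 shM14, against 34.6 and 32.3 RPKM in NB4 shNS, and fell by 0.51 on the log2 scale (limma adjusted p = 0.00216). In MM6 NRAS had 16.5 and 15.8 RPKM in shM14, against 35.4 and 31.8 RPKM in shNS, a change of -1.01 that missed the threshold (limma adjusted p = 0.0802). The MM6 replicates of NRAS were close, and over both lines it fell by 0.76 (limma adjusted p = 0.00657). The adaptor SHC1 rose in NB4 by 0.32 (limma adjusted p = 0.00497) and had 0.01 in MM6. In MM6 none of the 20 passed, and 1 had an unadjusted p under 0.05.

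Of the JNK and p38 genes 6 of 14 tested rose in NB4 and 2 fell (median 0.13), against 22.1% and 25.2% of all genes tested, and none of 15 passed in MM6. MAP3K5, a stress-activated kinase upstream of both, had 17.4 and 17.8 RPKM in NB4 shM14, against 10.1 and 10.05 RPKM in NB4 shNS (0.74, limma adjusted p = 0.000601). In MM6 its change was 0.52 (adjusted p = 0.236) and over both lines 0.63 (adjusted p = 0.00629). MAP2K3, which activates p38, rose by 0.41 in NB4, had 0.50 in MM6 (limma adjusted p = 0.201) and rose by 0.46 over both lines (adjusted p = 0.00850). MAP3K1, another kinase at the top of the cascade, rose in NB4 by 0.43 (limma adjusted p = 0.00230) and had -0.38 in MM6 (adjusted p = 0.329).

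Of the ERK-induced transcripts 7 of 12 tested rose in NB4 and 2 fell (median 0.28), against 22.1% and 25.2% of all genes tested. IER3, an immediate early gene, had 10.3 and 10.5 RPKM in NB4 shM14, against 2.96 and 3.05 RPKM in NB4 shNS (1.51, limma adjusted p = 0.000148), and PHLDA1 rose by 0.72. CCND1, which encodes cyclin D1, fell by 0.64 (limma adjusted p = 0.00130). In MM6 none of 11 passed. IER3 had 24.8 and 5.19 RPKM in MM6 shM14, against 24.7 and 5.93 RPKM in MM6 shNS, so its replicates were as uneven as those of DUSP6. The ETS factors ETV5 and ETV4, by contrast, were even, with 0.39 and -0.31 in MM6, and ETV5 rose by 0.30 over both lines (limma adjusted p = 0.0282).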

How the data were processed

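Poly(A) RNA of 8 libraries was sequenced as single-end reads, per the labels, with a directional kit. The sources used here give neither aligner, counter, genome build nor the authors' test, nor the strand counted. The authors deposited 1 table per line. The RPKM per library is the authors' value; its unit was worked out from the values. The deposited signal columns are group means of reads over a size factor, the deposited ratio sets shM14 over shNS, the log2 column is its log2 per the file headers, and each gene has a deposited p-value, raw and adjusted. Whole reads were recovered for 100% of values within 0.01, which gave the depth of 23272126 to 28814911 reads. The deposited values hold no counts as such, so limma was used.

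Genes with at least 1 RPKM in at least 2 libraries of a fit entered limma 3.58.1 (R 4.3.3) as log2(RPKM + 1), at a Benjamini-Hochberg threshold of 0.05 over all genes tested. Changes on this scale understate those of low genes. All 10 members passed the filter in each comparison with all its libraries. The fit was tested on simulated reads whose replicates varied little and independently of each other. That test does not cover the uneven MM6 replicates. Alternatives were the pseudocount 0.1, dropping the filter, keeping genes with 10 CPM in 2 libraries, a block for the replicate number, a variance trend, median-of-ratios scaling, voom on recovered reads, all 8 libraries in 1 model, and each library left out; leaving out both MM6 libraries of 1 number was added after the values were seen. The 10 members and the 11 other lists were chosen with earlier results of these data known. Up to 2 genes per pathway list and line with the smallest p are named, plus any that differed between lines, and for likeness the 3 genes with the highest r. Start regions are RefSeq's on GRCh38.p14 and transcripts those of GENCODE 29; 1 transcript per gene was used. A few listed genes are not reported here. Figures were drawn with Python 3.11.15 and matplotlib 3.10.9.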

Additional observations from a re-analysis of the deposited data

Results flagged for a closer look

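Among the pathway genes named, the interaction test of the change with shM14 between the lines passed for MAP3K1 and for CCND1. MAP3K1 had 26.2 and 25.4 RPKM in NB4 shM14, against 18.8 and 18.9 RPKM in NB4 shNS, and 13.3 and 16.1 RPKM in MM6 shM14, against 19.1 and 19.6 RPKM in MM6 shNS. The NB4 change minus the MM6 change was 0.81 on the log2 scale (limma adjusted p = 0.0370). CCND1 had 4.65 and 5.04 RPKM in NB4 shM14, against 8.26 and 7.99 RPKM in NB4 shNS, whereas each MM6 library held 2 or 3 reads of it. Its difference was -0.65 (limma adjusted p = 0.0310), close to the NB4 change of -0.64 alone. At 2 or 3 reads the MM6 change on log2(RPKM + 1) is held near 0, so the test does not show that the lines responded differently in CCND1. Both calls were lost for 6 of the 8 choices of a left-out library, with adjusted p of 0.0193 to 0.213 for MAP3K1 and 0.0339 to 0.210 for CCND1. What sets the lines apart in MAP3K1 was not tested.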

How the results depend on the processing

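Of 507 recomputed values under settings that keep single libraries, 455 kept direction and side of the threshold, and of 282 with a library left out 224 did. Members called in NB4 numbered 6, 0 with all 8 libraries in 1 model (13.0% of all genes called), and 3 to 5 with a library left out (26.8% to 41.2%). In MM6 none was called, nor with any library left out. Same-numbered libraries deviated together in MM6 (r = 0.69 across genes) and little in NB4 (0.07), but the labels state no pairing, so the replicate block is only an alternative. With the replicate number as a block, 2 members were called in MM6 (DUSP1, adjusted p = 0.0122, and DUSP2, 0.0182), against 11.8% of all genes, 1 in the common change (11.3%), 1 in the difference between lines (8.93%) and 7 instead of 4 between controls (69.3%). The common change called 0 members, 0 to 1 with a library left out, 1 without both MM6 libraries of replicate 1 (14.6% of all genes) and 4 without both of replicate 2 (20.8%); the difference between lines called 0, and 3 in each of these fits (18.6% and 20.3%). Controls gave 2 to 9 with a library left out. Signs turned for SPRY2 in MM6 with median-of-ratios scaling (0.0171) and for the DUSP2 difference without both MM6 replicate 1 libraries (-0.13). With a library left out, MM6 changes ran from -1.16 to 2.73 for DUSP1, -0.57 to 2.42 for DUSP2, -0.38 to 0.29 for DUSP4, -0.58 to 1.56 for DUSP5, -0.93 to 1.43 for DUSP6, -0.47 to 0.38 for DUSP10, -0.71 to 0.94 for SPRY1, -0.26 to 0.21 for SPRY2, -0.49 to 0.0149 for DUSP7 and -0.0425 to 0.26 for DUSP23. The DUSP2 difference ran from -1.38 to 1.61 between lines and from -1.75 to 1.24 between controls. The cause of these turns was not tested. Depth limits DUSP5 in the MM6 replicate 2 libraries, with 12 and 17 reads.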
